A study of Mus musculus with 2 samples.

Results

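The 10 genes described here belong to the adipogenic programme of bone marrow stroma, and they were taken by symbol from the 34144 genes listed for both libraries, where all 10 were found. They are the transcription factors Pparg, Cebpa, Cebpb and Cebpd, the secreted proteins Adipoq, Lpl and Apoe, the lipid-binding proteins Fabp4 and Fabp5, and the lipid droplet coat protein Plin2. The old library and the adult library were each made from long-bone marrow of wild-type C57BL6 mice (C57BL6J in the extract protocol), with 1 library per age and no replicate. Flushed marrow was dissociated enzymatically, red cells were lysed, blood-forming cells were depleted magnetically, and live cells were sorted for droplet-based 3′ single-cell RNA sequencing. The labels give age as a word only, and the sources used here do not state the ages in months, the sex, the number of mice or any pooling.

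Marrow adipocytes arise from perivascular stromal cells that express the leptin receptor and large amounts of the chemokine CXCL12, called CXCL12-abundant reticular (CAR) cells. These cells already transcribe adipocyte genes while they remain fibroblast-like and hold no large lipid droplet. In the textbook order of fat cell formation, C/EBPβ and C/EBPδ act early and induce PPARγ and C/EBPα, which maintain each other and switch on the genes of lipid uptake, binding and storage.

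Promoters from RefSeq (GRCm38.p6) were at hand for 6 of the 10 genes, and a pair of them is shown, each running from 250 bases before to 50 bases after the transcription start. Cebpb is shown because it had the lowest ratio of old to adult mRNA of the 10 genes in CAR cells, and Adipoq because it is the product most closely tied to fat cells. Capitals mark matches on either strand to CCAAT, the box bound by NF-Y, to TGACG, the core of the cAMP response element, and to the TATA box motif TATAAA, and no matches overlapped.
Cebpb, chr2:167688665-167688964, plus strand: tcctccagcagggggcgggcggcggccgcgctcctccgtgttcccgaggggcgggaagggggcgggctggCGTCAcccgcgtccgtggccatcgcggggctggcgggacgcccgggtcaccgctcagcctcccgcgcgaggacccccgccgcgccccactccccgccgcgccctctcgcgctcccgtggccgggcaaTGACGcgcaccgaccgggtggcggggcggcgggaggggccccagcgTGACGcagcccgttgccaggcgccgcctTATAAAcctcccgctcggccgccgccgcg
Adipoq, chr16:23146286-23146585, plus strand: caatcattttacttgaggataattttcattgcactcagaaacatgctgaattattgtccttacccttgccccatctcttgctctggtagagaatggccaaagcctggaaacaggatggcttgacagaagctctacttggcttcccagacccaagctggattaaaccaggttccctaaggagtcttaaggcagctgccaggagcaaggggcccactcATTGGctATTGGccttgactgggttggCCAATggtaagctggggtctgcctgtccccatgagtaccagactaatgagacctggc
The Cebpb window held 3 TGACG and 1 TATAAA matches and 0 CCAAT matches, whereas the Adipoq window held 3 CCAAT matches and 0 of the other motifs. Of the 32851 promoters in the table, 20.8% held TGACG, 13.6% TATAAA and 37.4% CCAAT. Each match is a description of the letters only.

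The old library held 229917243 unique molecular identifiers (UMIs) in 22298 barcodes and the adult library 208637421 in 25635, and 152 barcode sequences occurred in both. After filters, 18975 old cells (median 7736 UMIs) and 22403 adult cells (median 7139 UMIs) remained. They were grouped into clusters with the 10 genes and a wider list of fat-related genes left out of the clustering, and clusters took a name ending in "-like" from other marker genes. Levels are given as CPM, the UMIs of a gene summed over the cells of a class and scaled by the class total in the usual way. Intervals are 95% intervals for counting error and leave out any difference between mice. The immunoglobulin transcript Igkc lay between 1814 and 6326 CPM in every old CAR-like or CAR-scoring cluster and at 1.59 CPM or less in every adult one. In an alternative, immunoglobulin, haemoglobin and other listed blood-cell RNA was left out of the totals. The log2 ratio of old to adult in CAR-like cells was then −1.287 for Cebpb, against −1.292 with it. For Lpl it was −1.181 against −1.186, for Adipoq −0.618 against −0.623, and for Apoe 0.305 against 0.300. Any other bearing of Igkc on the ratios was not tested.

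Of the named classes with at least 100 cells, CAR-like cells had the highest CPM of Adipoq, Lpl, Apoe, Cebpa and Cebpd in both libraries. In old CAR-like cells Cebpb, Lpl and Fabp4 were each less than 0.5 times their adult level. Adipoq was moderately lower and Apoe higher, both within the ordinary spread of genes given below. The comparison used 11881 old and 13138 adult CAR-like cells, with 90531775 and 101622199 UMIs and median depths of 6938 and 6993 UMIs. The minimum for a gene was 50 CPM and 50 UMIs in whichever library had more of it, and a 2-fold difference or more made a call. Of the 10 genes, 8 passed this minimum; 7 were lower in old cells and 1 was higher, with a median log2 ratio of −0.53. At least 2-fold lower were 3 of them, against 1.84% of the 4181 genes past the minimum, and at least 2-fold higher were 0, against 2.73%. The median of all these genes was 0.01. The 3 calls hold no test, because 1 library per age gives no spread between mice.

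**Figure D1:**
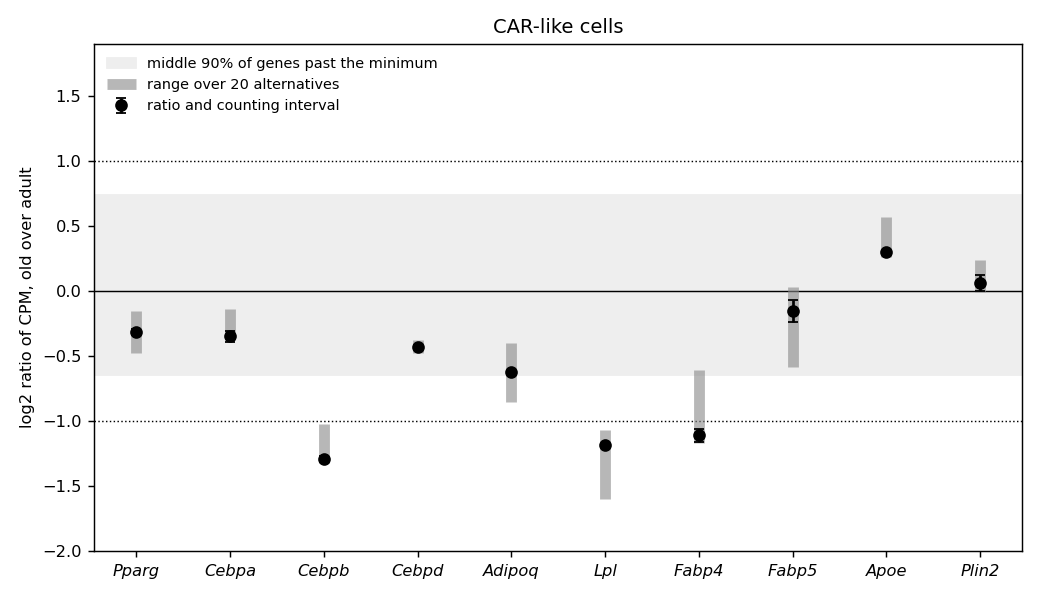
The log2 ratio of old over adult CPM in CAR-like cells is plotted for each gene (points, with 95% counting intervals), over its range across 20 alternative ways of processing (thick grey bars) and the middle 90% of all genes past the minimum (grey band); dotted lines mark 2-fold. Cebpb and Lpl lie below the lower dotted line across their whole range, Fabp4 crosses it, and only Apoe and Plin2 have points above 0.

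Among the transcription factors, Cebpb (ENSMUSG00000056501), which encodes the early regulator C/EBPβ, stood at 182 CPM in old CAR-like cells (interval 179 to 185) and 446 CPM in adult ones (442 to 449.7). The log2 ratio was −1.29 (−1.32 to −1.27), lower than that of all but 1.05% of genes past the minimum. Its close relative Cebpd (ENSMUSG00000071637) was at 429.9 CPM in old and 579.6 CPM in adult cells (log2 −0.43, −0.45 to −0.41). The later regulators differed less: Pparg (ENSMUSG00000000440), the nuclear receptor that commits cells to fat formation, was at 295 CPM in old and 366 CPM in adult cells (log2 −0.31, −0.34 to −0.29). Cebpa (ENSMUSG00000034957), its partner, was at 91.0 CPM in old and 116 CPM in adult cells (log2 −0.35, −0.39 to −0.31). All 4 factors were thus lower in the old library, but only Cebpb was past the 2-fold line. The ratios of Cebpd, Cebpa and Pparg were lower than those of all but 10.9%, 16.2% and 18.8% of genes past the minimum. They lay above −0.65, under which 5% of those genes lay, and so within the ordinary spread of genes.

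The early response genes with which Cebpb is often induced were lower as well. Of 25 listed immediate early genes, which tissue digestion can also induce, 19 passed the minimum. All 19 were lower in old CAR-like cells, against 2046 of all 4181 genes past the minimum. At least 2-fold lower were 7 of the 19, against 1.84% of all genes. The median log2 ratio of the 19 was −0.70. Fos, the best known of them, was at 1053 CPM in old and 2588 CPM in adult cells (log2 −1.30). Their part in the Cebpb difference was not tested.

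Among the secreted proteins, Lpl (ENSMUSG00000015568), the lipase that releases fatty acids from circulating lipoproteins, was at 1089 CPM in old CAR-like cells (1082 to 1096) and 2478 CPM in adult ones (2469 to 2488), a log2 ratio of −1.19 (−1.20 to −1.18). Adipoq (ENSMUSG00000022878), which encodes the hormone adiponectin, was at 1231 CPM in old and 1897 CPM in adult cells (log2 −0.62, −0.63 to −0.61), short of 2-fold. Apoe (ENSMUSG00000002985), the apolipoprotein that carries cholesterol between cells, went the other way, at 2225 CPM in old and 1807 CPM in adult cells (log2 0.30, 0.29 to 0.31). The ratios of Adipoq and Apoe lay between −0.65 and 0.74, the 5% and 95% points of genes past the minimum. With every cell thinned to 2000 UMIs, the share of CAR-like cells with a UMI was 73.6% in old and 93.1% in adult for Lpl, 73.3% and 85.0% for Adipoq, and 86.1% and 84.2% for Apoe. Without thinning the shares were 86.8% of old and 96.4% of adult cells for Lpl, 84.0% and 90.8% for Adipoq, and 89.9% and 91.3% for Apoe.

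Fabp4 (ENSMUSG00000062515), the fatty acid carrier also called aP2, was at 49.6 CPM in old CAR-like cells and 107 CPM in adult ones (log2 −1.11, −1.16 to −1.06). Megakaryocyte-like cells, which should lack it, had 27.1 CPM in the old and 94.9 CPM in the adult library, or 54.7% and 88.5% of the CAR-like level. The 10 CAR markers spanned 32.5% to 62.3% of theirs in old and 49.2% to 62.3% in adult megakaryocyte-like cells, so Fabp4 lay within that range in old and above it in adult cells. After thinning, 6.19% of old and 12.7% of adult CAR-like cells had a Fabp4 UMI, beside 1.65% of old and 9.14% of adult megakaryocyte-like cells (median depths 2269 and 2005 UMIs). The 10 endothelial markers together came to 48.1 CPM in old and 98.4 CPM in adult CAR-like cells. Their part in the Fabp4 difference was not tested. Fabp4 was also the call that depended most on the processing: it stayed at least 2-fold lower in 12 of 20 alternatives and reached −0.61 with 4000 variable genes. The 20 include alternatives that changed only the minimum of CPM or UMIs and so could not move a ratio.

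Fabp5 and Plin2 stayed under the minimum in CAR-like cells. Fabp5 (ENSMUSG00000027533), the epidermal-type fatty acid carrier, was at 21.6 CPM in old and 24.0 CPM in adult cells (log2 −0.15, −0.24 to −0.07). Cluster 18, with 1.62% of old and 1.903% of adult CAR-like cells, gave 31.9% of the old and 15.7% of the adult Fabp5 UMIs, and without it the log2 ratio was −0.47. It lay between −0.59 and −0.40 in 5 further alternatives that redrew the clusters or raised the minimum of genes per cell. Plin2 (ENSMUSG00000028494), which coats small lipid droplets in many cell types, was at 42.3 CPM in old and 40.5 CPM in adult cells (log2 0.06), with an interval of −0.0014 to 0.13 that includes 0. Their signs turned in 1 alternative each, to 0.03 for Fabp5 without the 5% deepest cells and to −0.0047 for Plin2 in thinned cells. Ratios were also centred within bins of the length of each gene's longest transcript. The log2 ratios of Pparg (−0.16), Cebpa (−0.20), Adipoq (−0.40), Apoe (0.57) and Plin2 (0.235) then changed in size by over 1.5 times.

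Markers of ripe fat cells were nearly absent from CAR-like cells. Of 8 adipocyte markers, none passed the minimum, their sum was 5.0 CPM in old and 14.5 CPM in adult cells, and Lep, the leptin gene, had 0 UMIs in both. Cfd, which encodes the fat cell protease adipsin, had 53 UMIs in old and 488 UMIs in adult CAR-like cells. Plin1, the coat protein of large droplets, had 18 UMIs in old and 45 UMIs in adult cells. No cluster took the name adipocyte.

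Within the CAR-like class the libraries lay almost apart. Old CAR-like cells were mostly in cluster 2 (39.8%, set off by Lgr5, Grm7 and Efemp1), cluster 3 (33.7%, with the acute phase genes Saa3 and C3 and the enzyme Enpp2), cluster 8 (14.7%, of shallow cells with a median of 2958 UMIs) and cluster 13 (7.46%, with the chemokine Cxcl13 and a median of 1713 UMIs). Adult ones were mostly in cluster 0 (41.6%, with Palmd, Alpl and Rbp4), cluster 1 (36.6%, with Col3a1, Nr4a1 and Ptn) and cluster 5 (17.96%, again shallow, with a median of 3012 UMIs). Ratios over the class therefore also set these clusters against each other.

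The early factors peaked in the cluster that held the most immediate early RNA in each library. Cebpb was at 264 CPM in old cluster 3 against 131 CPM in old cluster 2, and at 587 CPM in adult cluster 1 against 363 CPM in adult cluster 0. Cebpd followed, with 613 CPM in old cluster 3, 332 CPM in old cluster 2, 718 CPM in adult cluster 1 and 523 CPM in adult cluster 0. The summed immediate early genes stood at 10428 CPM in old cluster 3, 5681 CPM in old cluster 2, 17107 CPM in adult cluster 1 and 8765 CPM in adult cluster 0. Cebpb in old cluster 3 was thus below its level in adult clusters 0 and 1, but above that in adult clusters 5 (233 CPM) and 18 (221 CPM). Cebpd in old cluster 3 lay between its values in adult clusters 0 and 1.

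Adipoq, Apoe and Pparg divided the clusters differently. Adipoq was highest in old cluster 13 (2778 CPM) and adult cluster 0 (2291 CPM), and lowest in the shallow clusters 8 of the old library (229.5 CPM) and 5 of the adult library (496 CPM). Apoe was likewise highest in old cluster 13 (4634 CPM) and lowest in old cluster 8 (378 CPM), but old cluster 2, next to highest for Adipoq (1554 CPM), was below clusters 17 and 3 for Apoe (2307 CPM, against 2613 and 2355 CPM). Pparg ran against them only at the extremes: it was highest in clusters 8 (439.8 CPM) and 5 (533 CPM) and lowest in old cluster 13 (84.3 CPM). Old cluster 2 was next to highest for Pparg (353 CPM) as for Adipoq. Adult cluster 0, highest of the adult clusters for Adipoq, was next to highest for Pparg (391 CPM). The abundant nuclear RNA Malat1 stood at 44111 CPM in old cluster 8 and 53004 CPM in adult cluster 5, but at 5362 CPM in old cluster 13, and whether it bears on this order was not tested. Without the clusters of median depth under 4000 UMIs, the Pparg ratio was −0.28, that of Adipoq −0.67 and that of Apoe 0.26.

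**Figure D2:**
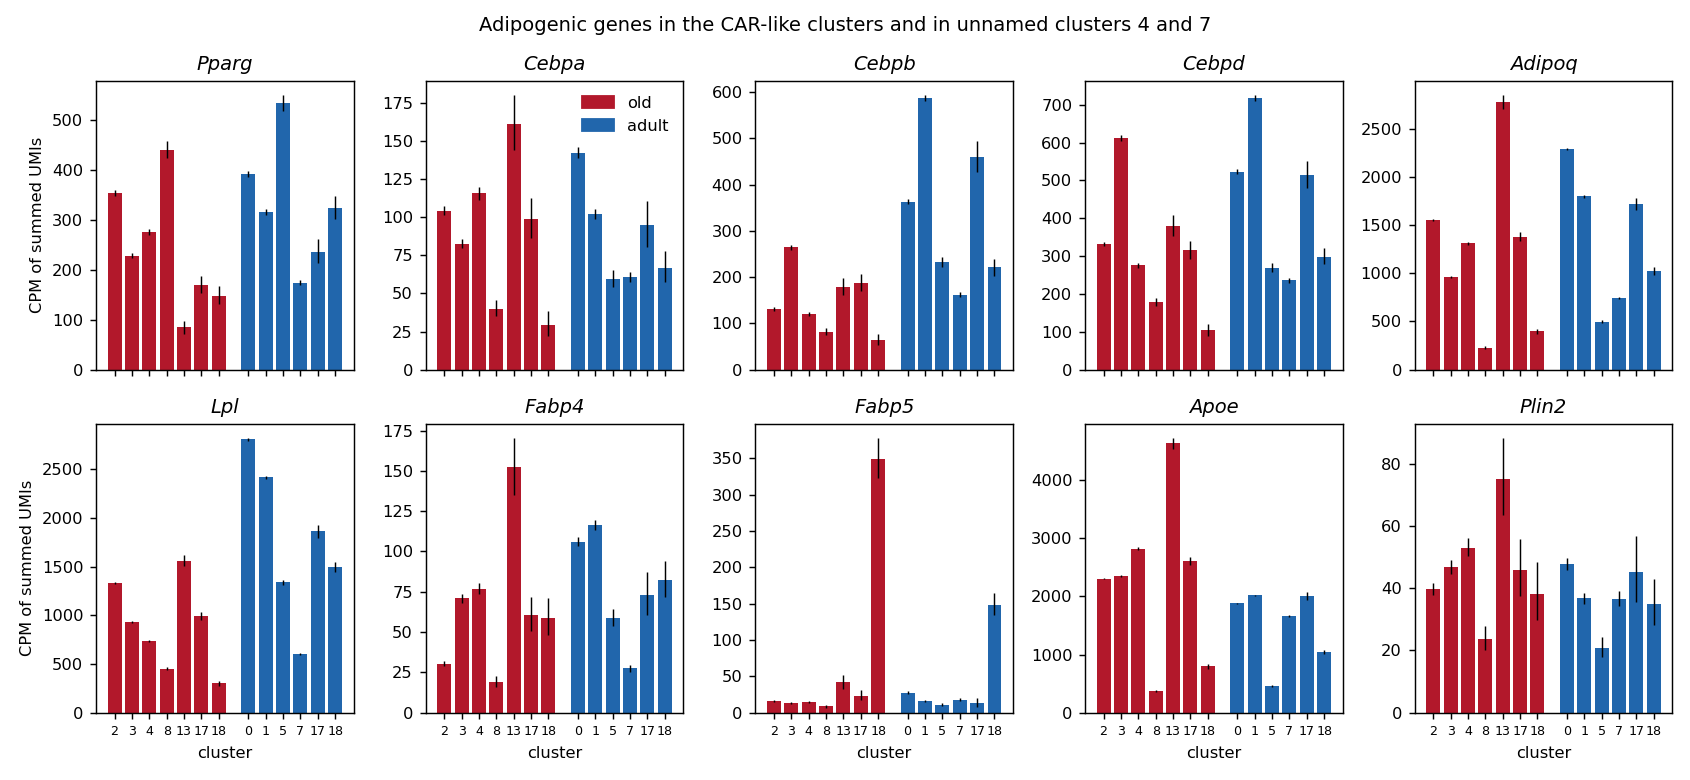
Bars give the CPM of each gene in the old (left, red) and adult (right, blue) cells of each CAR-like cluster and of unnamed clusters 4 and 7, with 95% counting intervals. Fabp5 is high only in cluster 18, Adipoq and Apoe are highest in old cluster 13 (2778 and 4634 CPM), and Lpl is higher in adult clusters 0 and 1 than in any old cluster.

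A pair of CAR-like clusters drew many cells from both libraries. Cluster 17, led by the interferon-induced genes Cxcl10, Cxcl9 and Ifit3, held 259 old and 202 adult cells. There Cebpb was at 187 CPM in old and 460.1 CPM in adult cells (log2 −1.30, −1.47 to −1.12), the only one of the 10 genes to reach 2-fold, against 1.62% of genes lower and 2.52% higher by that much. Lpl was at 995 CPM in old and 1864 CPM in adult cells (log2 −0.91, −0.98 to −0.83). Adipoq (log2 −0.31), Cebpd (−0.70) and Apoe (0.38) kept the sign they had over the whole class, as did Pparg (−0.48). Cebpa turned to 0.06, with an interval of −0.24 to 0.37 that includes 0, and Fabp5, under the minimum, turned to 0.80 (0.06 to 1.59). Fabp4 was at 60.7 CPM in old and 73.2 CPM in adult cells (log2 −0.27), with an interval of −0.64 to 0.10 that includes 0.

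Cluster 18, led by the dividing-cell genes Top2a and Mki67 and by the carbonic anhydrases Car1 and Car2, held 193 old and 250 adult cells. Lpl was at 301 CPM in old and 1497 CPM in adult cells (log2 −2.31, −2.45 to −2.18), and Fabp5 was at 349.6 CPM in old and 148 CPM in adult cells (log2 1.24, 1.05 to 1.42). Apoe turned against its sign over the class, at 798 CPM in old and 1043 CPM in adult cells (log2 −0.39, −0.48 to −0.29). Pparg, Cebpa, Cebpb, Cebpd and Adipoq were each at least 2-fold lower, with log2 ratios of −1.79 for Cebpb to −1.13 for Pparg. Many genes differed in this cluster: 15.8% were lower by 2-fold or more and 15.2% were higher by as much. Its cells were also unlike in depth and content: the median was 3553 UMIs in old and 8311 UMIs in adult cells, Cxcl12 was at 2303 and 5176 CPM, Car1 was at 855 and 84.7 CPM, and the haemoglobin gene Hba-a1 was at 1213 and 322 CPM. No doublets were removed, and whether these droplets held more than 1 kind of cell was not tested.

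Clusters 4 and 7 scored highest for CAR markers but stayed unnamed because of their leading genes. Cluster 4, set off by Kcnk2, Lrrtm4 and Kit, held 2596 old and 28 adult cells, and its old cells had 1311 CPM of Adipoq, 739.8 CPM of Lpl and 2824 CPM of Apoe. Cluster 7, set off by Fat3, Postn and Wif1, held 26 old and 2156 adult cells, and its adult cells had 741 CPM of Adipoq, 604 CPM of Lpl and 1665 CPM of Apoe. Counted as CAR-like, they moved the ratio of Adipoq to −0.43, of Lpl to −1.07 of Cebpb to −1.22, of Pparg to −0.19 and of Cebpa to −0.14, and took Fabp4 to −0.75, short of 2-fold.

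Counted cell by cell, old CAR-like cells held fewer of the 10 transcripts at once. In cells thinned to 2000 UMIs, the median number of the 10 genes detected was 4 in old and 5 in adult CAR-like cells, and 5 or more were detected in 29.1% of 10756 old and 53.1% of 12405 adult cells. Cells left out as too shallow numbered 1125 old and 733 adult. Adipoq and Lpl occurred together: Lpl was found in 79.8% of Adipoq-positive and 56.6% of Adipoq-negative old cells, and in 95.4% and 79.6% of adult cells. Pparg gave no such split, since Adipoq was found in 73.0% of Pparg-positive and 73.4% of Pparg-negative old cells, and in 83.8% and 86.0% of adult cells. These shares are descriptions of cells within 1 library each.

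RNA of CAR markers was also found in the droplets of other classes, and free RNA and a CAR cell in the same droplet cannot be told apart here. As a gauge, the 10 CAR markers were expressed as a percentage of their CAR-like level. Their median was 40.3% in old and 54.9% in adult megakaryocyte-like cells, 22.8% and 23.7% in the pericyte or smooth muscle-like class, 27.9% and 27.2% in the endothelial-like class, and 17.7% and 19.4% in the osteolineage-like class. Adipoq lay within or below the range of these markers in each of 12 combinations of class and library, so no Adipoq beyond the level of the CAR markers was detectable there. Cebpa and Lpl exceeded the range in 3 and 2 of the 12, among them pericyte or smooth muscle-like cells of both libraries by a small margin (for Lpl 36.2% in old and 40.0% in adult, against highest marker values of 32.8% and 35.2%).

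**Figure D3:**
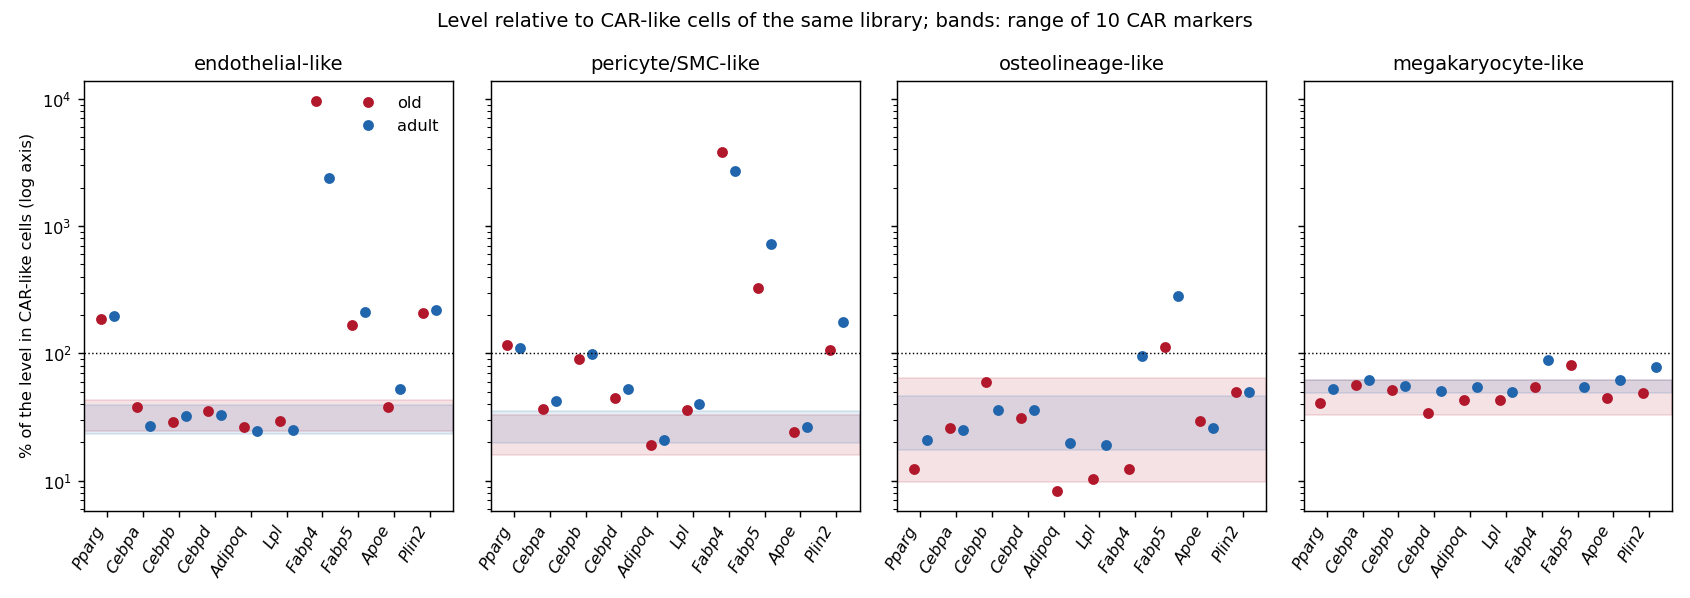
Each point is the level of a gene in a class as a percentage of its level in CAR-like cells of the same library (log axis; old red and left, adult blue and right), and the bands span the 10 CAR markers. Adipoq stays within or below the bands, whereas Fabp4 and Pparg lie above them in endothelial-like and pericyte-like cells.

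Endothelial-like cells, the lining of the marrow vessels, had the most Pparg of the named classes with at least 100 cells, at 549 CPM in old cells (519 to 579) and 721 CPM in adult cells (706 to 736), or 186% and 197% of the CAR-like level. Pericyte or smooth muscle-like cells, which wrap the vessels, came next, with 345 CPM in old and 406 CPM in adult cells, above the CAR-like level in both libraries. Fabp4, a known product of capillary endothelium, was at 4802 CPM in old endothelial-like cells (4713 to 4892) and 2566 CPM in adult ones (2537 to 2594). In pericyte or smooth muscle-like cells it was at 1909 CPM in old and 2905 CPM in adult cells. The order of these classes thus differed between libraries: endothelial-like cells led in old and pericyte or smooth muscle-like cells in adult marrow, with intervals that did not overlap. Every other named class with at least 100 cells had 107 CPM or less.

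Both the share of endothelial-like cells with arterial markers ahead and the levels among them differed. Cells with more arterial than sinusoidal marker UMIs made up 73.2% of 400 old and 29.2% of 1782 adult endothelial-like cells, and cells with more sinusoidal UMIs made up 22.5% and 66.7%. In the first, Fabp4 was at 5877 CPM in 293 old cells and 2460.4 CPM in 520 adult cells (log2 1.26, 1.21 to 1.30). In the second, it was at 2310 CPM in 90 old cells and 2639 CPM in 1188 adult cells. Pparg was at 528 CPM in old and 206 CPM in adult cells with arterial markers ahead (log2 1.36, 1.21 to 1.51), against 614 CPM in old and 927 CPM in adult cells with sinusoidal markers ahead. Among cells with arterial markers ahead, Fabp4 and Pparg were thus the 2 genes of the 10 at least 2-fold higher, against 4.15% of genes. Cebpb and Fabp5 were at least 2-fold lower, against 2.66%. Cebpb lay at 26.9% of its CAR-like level in these old cells and 24.5% in the adult ones. Both values were within the range of the CAR markers, so its ratio cannot be told apart from that of CAR RNA in the same droplets.

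The partners of these genes in fatty acid transfer, chosen here after their values were seen, did not all follow. Cd36, which takes up fatty acids, was at 1131 CPM in old and 278 CPM in adult cells with arterial markers ahead. Gpihbp1, which holds LPL on the capillary wall, was at 419 CPM in old and 552 CPM in adult cells of that kind, and at 424 CPM in old and 446 CPM in adult endothelial-like cells as a whole. Plin2 was highest in endothelial-like cells too, at 87.7 CPM in old and 89.5 CPM in adult cells.

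**Figure D4:**
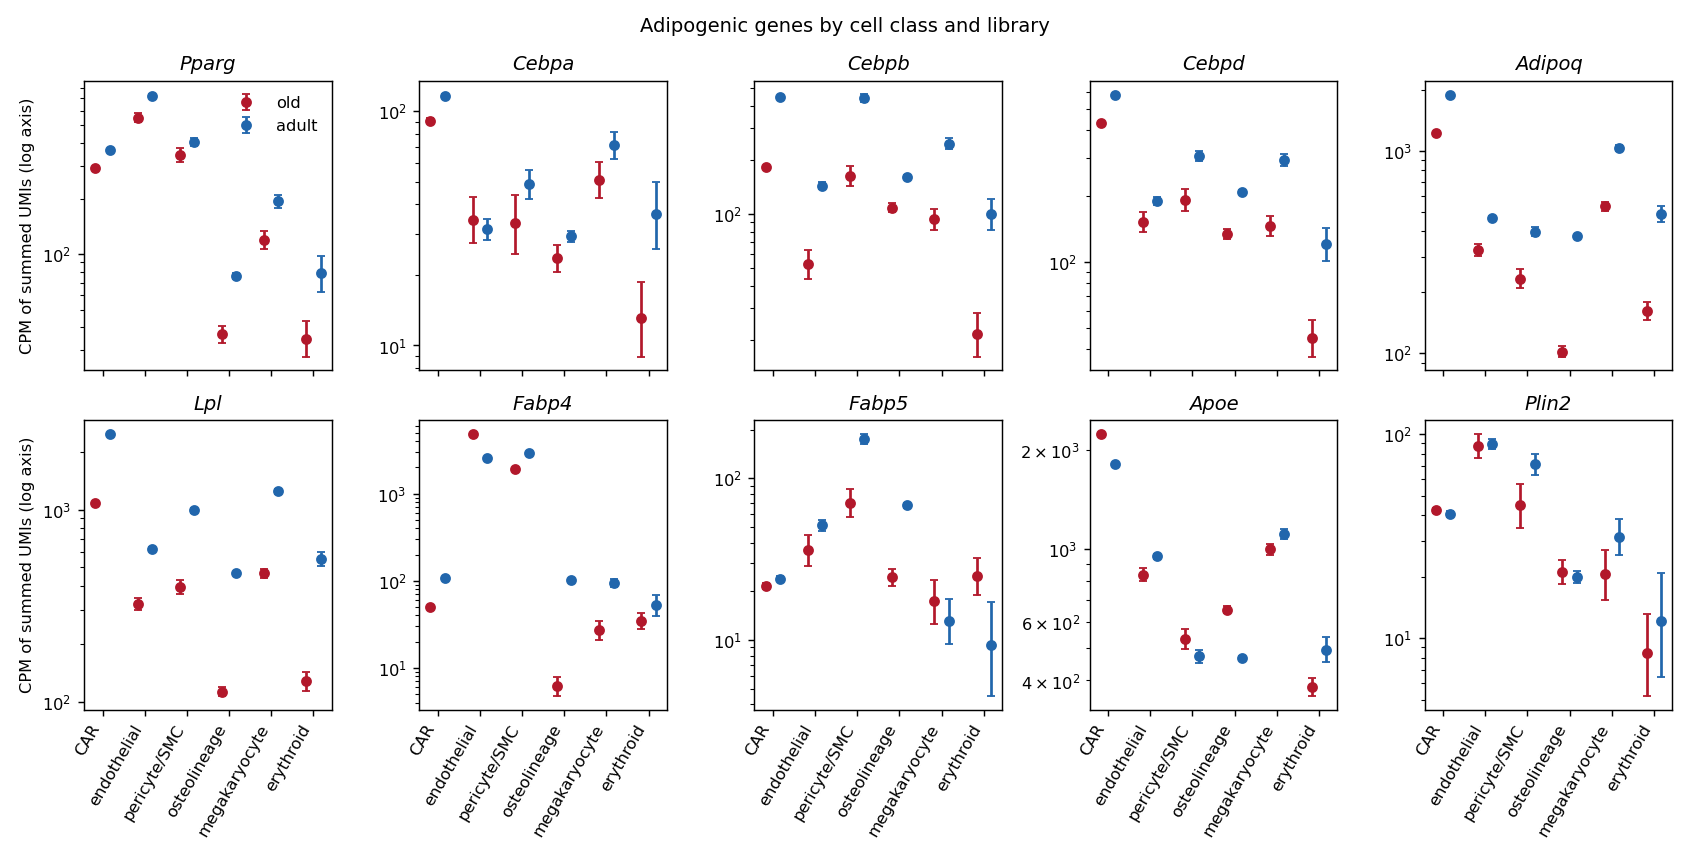
CPM of each gene (log axes of unequal range) by cell class, with old cells (red) left of adult cells (blue) and 95% counting intervals. Fabp4 is highest in endothelial-like and pericyte-like cells, where it exceeds 1900 CPM, and Adipoq, Apoe and Cebpa are highest in CAR-like cells.

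Fabp5 was lower in CAR-like cells than in several other classes. Pericyte or smooth muscle-like cells held the most among named classes of at least 100 cells, at 70.4 CPM in old and 175 CPM in adult cells (log2 −1.31, −1.62 to −1.01). Endothelial-like cells were at 36.1 CPM in old and 51.1 CPM in adult cells, and osteolineage-like cells at 24.4 CPM in old and 67.9 CPM in adult cells. Old neutrophil lineage-like cells were at 37.9 CPM and adult chondrocyte-like cells at 50.4 CPM. Erythroid-like cells, full of haemoglobin RNA, were at 25.01 CPM in old (19.04 to 32.3) and 9.35 CPM in adult (4.48 to 17.2), both low. By far the most was in unnamed cluster 16, led by Car1, Slc25a21 and Car2 and of very deep cells (median 67160 UMIs in the old library), with 575 old and 24 adult cells. There Fabp5 reached 563 CPM and was found in 97.6% of old cells, against 81.9 CPM and 83.3% of adult cells; after thinning the shares were 62.0% of old and 17.4% of adult cells. Erythroid markers gave this cluster its best score, but that score was under the limit for a name. Over all cells of a library, Fabp5 was at 113 CPM in old and 39.1 CPM in adult cells, the reverse of its order in CAR-like cells.

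Across the other 5 classes with at least 100 cells in both libraries, 17 of the 41 comparisons past the minimum reached a 2-fold difference, all 17 lower in old cells and 0 higher, where 5.29% (endothelial-like), 3.28% (pericyte or smooth muscle-like), 10.6% (osteolineage-like), 2.21% (erythroid-like) and 8.4% (megakaryocyte-like) of all genes were higher by as much. Many of the 17 lay within the range of the CAR markers in both libraries. Their ratios cannot be told apart from that of CAR RNA in the same droplets. In endothelial-like cells Cebpb was the only one of the 17, at 52.9 CPM in old and 144 CPM in adult cells (log2 −1.45), against 3.26% of genes lower. In pericyte or smooth muscle-like cells there were 3, against 2.47%: Cebpb (164 CPM in old and 443 CPM in adult cells), Lpl (394 and 991 CPM) and Fabp5. Cebpb lay above the range of the CAR markers in pericyte or smooth muscle-like cells, at 90.1% of its CAR-like level in old and 99.4% in adult cells. In endothelial-like cells it lay within that range, at 29.1% in old and 32.4% in adult cells, so its ratio there cannot be told apart from that of CAR RNA in the same droplets.

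Osteolineage-like cells, the bone-forming lineage, had 5, against 4.66% of genes lower. Fabp4 was at 6.13 CPM in old and 102 CPM in adult cells (log2 −4.06, −4.44 to −3.70), Lpl at 113 and 470 CPM (log2 −2.06), and Adipoq at 102 and 378 CPM (log2 −1.89). Pparg (log2 −1.05) and Fabp5 (−1.47) completed them, Cebpb was at 109 CPM in old and 162 CPM in adult cells (−0.57), short of 2-fold, and Apoe was higher, at 656 CPM in old and 469 CPM in adult cells (log2 0.48). These cells came from different clusters, mostly cluster 12 in the old library (688 cells) and clusters 9 and 10 in the adult library (1700 and 1080 cells), and Adipoq lay at 8.28% of its CAR-like level in old and 19.9% in adult cells. The CAR markers spanned 9.69% to 63.6% in old and 17.4% to 46.4% in adult cells. Lpl (10.4% in old and 19.0% in adult) and Pparg (12.5% and 20.8%) lay within that range, and Adipoq within or below it. Their ratios there cannot be told apart from that of CAR RNA in the same droplets. Fabp4 was within the range in old (12.4%) and above it in adult cells (95.2%), and Fabp5 was above it in both. The CAR markers do not gauge RNA from other sources. Fabp4 was at 27.1 CPM in old and 94.9 CPM in adult megakaryocyte-like cells, and at 107 CPM in adult CAR-like cells. Endothelial-like cells, far richer in Fabp4, were 2.11% of old and 7.95% of adult cells. Whether RNA from such cells bears on the Fabp4 difference was not tested. Erythroid-like cells had 5 (against 8.1% lower) and megakaryocyte-like cells 3 (against 5.01%), where most of the 10 genes lay within the range of the CAR markers.

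In cells of the neutrophil lineage, where C/EBPβ drives emergency granulocyte formation, Cebpb was at 479.6 CPM in 164 old and 673 CPM in 66 adult cells. In the old library this was the highest of all classes, ahead of CAR-like cells at 182 CPM. In the adult library it also exceeded CAR-like cells (446 CPM), but with under 100 cells it was not ranked.

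The wider adipogenic list differed little as a whole. Of its 86 genes, 34 passed the minimum in CAR-like cells, 13 higher and 21 lower in the old library (median log2 ratio −0.11). All 4181 genes past the minimum were split into 2135 higher and 2046 lower. In the list 0 genes were called higher, against 2.73% of all genes, and 1 was called lower, against 1.84%. A count of 1 among 34 is near that share. The gene called lower was Id3, an inhibitor of helix-loop-helix factors, at 349.5 CPM in old and 1410.3 CPM in adult cells (log2 −2.01, −2.03 to −1.99). Among the 8 inhibitors of adipogenesis past the minimum, 6 were lower and 2 higher, the second most abundant being the corepressor gene Ncor1 (log2 0.01).

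Of the 8 genes listed under cholesterol efflux and apolipoproteins, 4 passed the minimum, and all 4 were above 0 (median 0.57) but short of 2-fold. They were the cholesterol pump Abca1, at 173 CPM in old and 94.6 CPM in adult cells (log2 0.87), the lipocalin gene Apod, at 98.1 CPM in old and 56.4 CPM in adult cells (0.80), the phospholipid transfer protein gene Pltp (0.34) and the RNA-editing enzyme gene Apobec1 (0.22). The pump gene Abcg1, under the minimum, was at 0.729 CPM in old and 2.82 CPM in adult cells. Both genes of fat synthesis past the minimum were higher as well, Acaca, which makes malonyl-CoA (0.33), and the desaturase gene Scd2 (0.41). Of 6 listed genes of lipolysis, only 2 passed the minimum. Both were lower, G0s2, an inhibitor of the fat lipase ATGL (−0.77), and its coactivator gene Abhd5 (−0.47). Under the minimum, Pnpla2 (0.21), Lipe (0.13) and Lipa (0.26) were above 0 and Mgll (−0.39) was below it. Fatty acid uptake was split, with Acsl4 higher (0.80), Lrp1 at −0.13 and Angptl4, a secreted inhibitor of LPL, lower (−0.41).

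The other groups were near 0 by their medians. Of 7 further transcription factors, 2 were higher and 5 lower (median −0.09); Ebf1, which maintains CAR cells, was at 3621 CPM in old and 3784 CPM in adult cells (log2 −0.06), and the glucocorticoid receptor gene Nr3c1 at 0.02. Of 7 adipokines and receptors, 2 were higher and 5 lower (median −0.06), with the chemerin gene Rarres2 at 0.13 and the insulin receptor substrate Irs1 at −0.53. Of 9 further droplet coat and assembly genes, Bscl2, which encodes seipin, was the only one past the minimum (−0.18), and Plin3 was at 35.8 CPM in old and 31.2 CPM in adult cells.

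**Figure D5:**
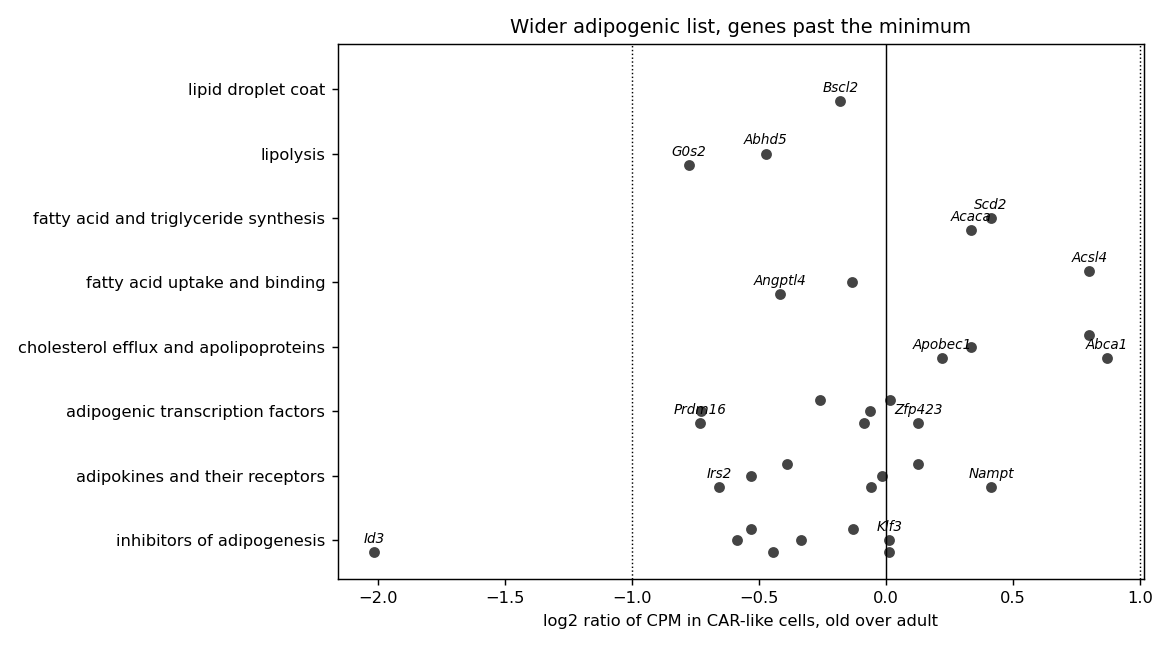
Each point is a gene of the wider list past the minimum in CAR-like cells, placed by its log2 ratio of old over adult CPM and grouped by role, with the lowest and highest of each group named; vertical offsets only separate points. Id3 at −2.01 is the only point beyond the dotted 2-fold lines, and the 4 genes of the list of cholesterol efflux and apolipoproteins lie right of 0, none of them past 2-fold.

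Over 15 combinations of class and library, the genes most like each of the 10 in log2(CPM + 10) were named as a description, since points of 1 library share that library. Adipoq was closest to Pdzrn4, Cbln1 and Ism1 (Pearson r 0.98 each), and Lpl to Id4, Igf1 and Cnnm1 (0.98 to 0.96). Pparg was closest to the basement membrane genes Col4a1 and Nid1 and to Rbpms (0.98 to 0.97), Cebpa to Egfr, Igfbp5 and Adcy2 (0.98 to 0.97), and Apoe to Gas6, Dlg5 and Kalrn (0.97). Fabp4 was closest to Tril, Eln and Tns1 (0.97 to 0.96), and Plin2 to Magi3, Nr3c1 and Sipa1l2 (0.95). Cebpd was closest to Mpped2, Nfil3 and Lrpap1 (0.96 to 0.95), whereas Cebpb (Nfu1, Abtb2 and Scand1, 0.93 to 0.89) and Fabp5 (Fry, Atp5a1 and Snrpb, 0.88 to 0.87) had looser matches. Among the 10 genes themselves, Adipoq and Lpl were the most alike pair (0.95).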

How the data were processed

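The authors deposited raw UMI counts per gene and barcode for each library; per the submitters' processing notes they used Cell Ranger with GRCm39, and the file headers give version 7.0.1. Barcodes with fewer than 500 genes or over 10% mitochondrial UMIs were left out. Libraries were clustered together without integration (2000 variable genes, 50 principal components, 15 neighbours, Leiden resolution 1 in igraph 0.11.9 with Scanpy 1.11.5), and clusters were named by 22 marker lists with a score of at least 0.45. Counts were summed per class and library, and intervals are exact Poisson, binomial or conditional binomial ones at 95% for counting error only. No p-value was computed, because each age has 1 library. No doublet caller was run and no doublets were removed; leaving out the deepest 5% of cells was an alternative. Clusters of fewer than 20 cells were joined to their nearest cluster. Endothelial-like cells were split by whether arterial or sinusoidal marker UMIs were more, without Cxcl12 and Vcam1. Transcript lengths and RefSeq promoters are of GRCm38, so no gene coordinates beyond those promoters are given. The arithmetic of ratios and calls was tested on simulated data. The 10 genes and all lists were chosen with earlier results of these data known. All 10 genes were named in every class, with those of the wider list at least 2-fold apart, the most abundant pair of each role group, and the 3 most alike genes by Pearson r; further names are given for context or were chosen after their values were seen. Scaling factors came from edgeR 4.0.16 and DESeq2 1.42.0 as alternatives, run on the summed deposited counts without a test.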

Additional observations from a re-analysis of the deposited data

Results flagged for a closer look

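In 2 genes the ratio of old to adult was 2-fold or more above 1 in 1 kind of cell and 2-fold or more below 1 in another. Pparg had a log2 ratio of 1.36 in endothelial-like cells with arterial markers ahead (528 CPM in old and 206 CPM in adult cells) and of −1.18 in erythroid-like cells (34.8 CPM in old and 78.5 CPM in adult cells), a gap of 2.53. In erythroid-like cells Pparg was at 11.8% of its CAR-like level in the old and 21.4% in the adult library, within the range of the CAR markers there. Fabp4 had a log2 ratio of 1.26 in endothelial-like cells with arterial markers ahead (5877 CPM in old and 2460.4 CPM in adult cells) and of −4.06 in osteolineage-like cells (6.13 CPM in old and 102 CPM in adult cells), a gap of 5.31. The osteolineage-like cells came mostly from cluster 12 in the old and clusters 9 and 10 in the adult library. The old Fabp4 value there rested on 63 UMIs, and adult megakaryocyte-like cells held 94.9 CPM. Neither difference between cell kinds was tested, since each age has 1 library.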

How the results depend on the processing

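The count of the 10 genes at least 2-fold apart in CAR-like cells was 3 and lay between 2 and 3 over 20 alternatives, and the count in the other classes was 17 and lay between 14 and 20 over 8. Cebpb and Lpl were at least 2-fold lower in 20 of 20 alternatives and Fabp4 in 12 of 20. The count over all genes was 191, lay between 182 and 7414, and left its 1.5-fold range only with no minimum of CPM or UMIs (7414). The count over the wider list was 1, and it was 3 with 4000 variable genes, 19 with no minimum, and 2 with unnamed clusters of high CAR score counted as CAR-like, an alternative added after the data were seen, as were leaving out the shallow clusters and leaving out cluster 18. Without the minimum more genes enter the counts; for the other 2 the cause was not tested. No paired analysis was possible because each age has 1 library. In CAR-like cells Fabp5 and Plin2 missed the minimum by their CPM, not by their UMIs.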
